A study of Mus musculus with 2 samples.

Results

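Kinesins are the motor proteins that walk along microtubules, and they are described here in cortical cells of mouse embryos sorted after electroporation of a Trpm2 knockdown or a control plasmid. The genes were taken by symbol, as all table entries named Kif, Kifc or Klc followed by a number and, in some, a letter. This gave 43 of 16103 genes. Members and their role groups were chosen with earlier results of these data known. Summaries use the 41 kinesin genes with a mean RPKM (reads scaled by gene length and library total) of at least 0.5 over both libraries, a level passed by 15187 genes in all. Just inside that level were Kif19a at 0.798 and Kif9 at 0.830 RPKM on average, and the genes outside it were Kif17 at 0.227 and Kif6 at 0.182.

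There was 1 library labelled Control and 1 labelled TRPM2-KD, both named as warm, from GFP-positive neural progenitors of the outbred ICR stock. Plasmids had been introduced into the embryonic cortex at embryonic day 13 and cells were sorted at embryonic day 15. A single short hairpin, sh1, is named for the knockdown, and any other action of that hairpin cannot be told apart from the knockdown. Neither the temperature nor the number of embryos pooled is given in the sources used here. With 1 library per group, no difference below has a replicate check or a test of the conditions. "Higher" and "lower" below describe these libraries only.

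Counted reads came to 26209192 in Control and 20791236 in TRPM2-KD. Trpm2 itself had 241 and 155 reads, a ratio of TRPM2-KD to Control of 0.811 (95% counting interval 0.658 to 0.996). Its level was low, at 0.745 and 0.604 RPKM. Of all genes averaging from 0.5 to under 2 RPKM, 70.9% were past 1.2-fold in either direction. Progenitor and neuron markers were both present. The 10 progenitor markers, among them Pax6, Sox2, Nes and Eomes, summed to 660 RPKM in Control and 695 in TRPM2-KD. Fabp7 alone held 259 and 303 RPKM of these sums. Of the 10 markers, 6 had a ratio above 1 and 4 below, with a median log2 ratio of 0.01. The 10 neuron markers, among them Tubb3, Dcx and Neurod2, summed to 1782 and 1635, so the sorted cells held neurons beside progenitors. Markers of microglia summed to 128 and 207 RPKM, of endothelium to 124 and 105, and of choroid plexus with multiciliated cells to 435 and 304. Ttr made up 403 and 283 RPKM of the choroid plexus sums. In such bulk RNA, fewer cells of a type and less RNA per cell cannot be told apart.

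Kinesins use ATP to move along microtubules or to take their ends apart. Dividing cells use a set of them to build the spindle, to move chromosomes and to complete cytokinesis, and in the ventricular zone this set works in cycling radial glia. Neurons keep a different set, which carries vesicles, mitochondria and RNA along axons and dendrites. Yet another set serves primary and motile cilia.

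Genes of the late cell cycle often carry in their promoters the cell cycle genes homology region (CHR), a hexamer bound by the DREAM and MuvB complexes, and upstream of it CCAAT boxes bound by the factor NF-Y. These promoters are shown because the CHR hexamer lies in most mitotic and few transport kinesin genes, a description by sequence that does not use the reads. Each stretch has 130 bases, 110 before and 20 after the annotated gene start. Kifc5b is shown from 82 before to 48 after its start, the span that lines up with Kifc1. Sequences are from RefSeq on GRCm38.p6, a later build than the mm9 of the submitters' processing notes, and run 5′ to 3′ along the gene's strand. Capitals mark the CHR hexamers TTTGAA or TTTAAA and the CCAAT boxes, in either orientation.
Kif11, chr19:37376272-37376401, plus strand: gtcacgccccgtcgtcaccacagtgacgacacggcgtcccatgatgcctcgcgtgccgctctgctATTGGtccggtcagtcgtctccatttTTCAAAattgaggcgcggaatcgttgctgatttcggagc
Kif15, chr9:122950971-122951100, plus strand: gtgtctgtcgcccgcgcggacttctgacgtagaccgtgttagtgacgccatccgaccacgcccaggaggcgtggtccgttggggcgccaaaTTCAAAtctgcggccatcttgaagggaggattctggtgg
Kif14, chr1:136467738-136467867, plus strand: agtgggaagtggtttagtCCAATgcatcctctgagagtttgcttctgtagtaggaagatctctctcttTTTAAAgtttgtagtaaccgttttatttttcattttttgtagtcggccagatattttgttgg
Kif23, chr9:61946780-61946909, minus strand: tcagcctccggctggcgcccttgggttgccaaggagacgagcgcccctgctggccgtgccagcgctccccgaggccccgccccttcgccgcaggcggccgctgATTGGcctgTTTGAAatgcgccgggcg
Kifc1, chr17:33890614-33890743, minus strand: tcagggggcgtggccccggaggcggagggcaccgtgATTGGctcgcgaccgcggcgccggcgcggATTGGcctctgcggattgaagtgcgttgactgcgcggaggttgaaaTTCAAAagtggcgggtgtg
Kifc5b, chr17:26917009-26917138, plus strand: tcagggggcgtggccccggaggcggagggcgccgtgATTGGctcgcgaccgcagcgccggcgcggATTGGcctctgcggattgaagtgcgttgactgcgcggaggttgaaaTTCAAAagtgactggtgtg
Kif5c, the most abundant transport motor, is shown for contrast and holds neither motif in this stretch.
Kif5c, chr2:49619176-49619305, plus strand: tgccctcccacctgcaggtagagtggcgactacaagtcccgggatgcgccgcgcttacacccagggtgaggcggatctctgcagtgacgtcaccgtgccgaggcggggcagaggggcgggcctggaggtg

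Promoters of 300 bases, 250 before and 50 after the start, were found for 34 of the 43 kinesin genes. Those without an entry were Kif5a, Kif5b, Kif13b, Kif19a, Kif20a, Kif21b, Kifc2, Kifc3 and Klc2. A CHR hexamer, searched as TTTGAA or TTTAAA on both strands, lay in 11 of the 12 mitotic kinesin genes, and Kif18a was the exception. It lay in 1 of 13 transport genes, Kif1a, at 1 of its annotated starts. Of all 10501 genes that passed the level filter and had a promoter entry, 2314 held it, and among all 27025 genes in the promoter table it was 30.6%. A CCAAT box, likewise on both strands, lay in 8 of the 12 mitotic and 5 of the 13 transport genes, against 42.6% of the 10501. Both motifs lay in 8 mitotic genes, in none of the transport genes, and in 10.5% of the 10501. They also lay together in 1 of 5 genes of cilia, Kif27, and in 1 of 4 neuronal microtubule regulators, Kif26b. The near copies Kifc1 and Kifc5b, whose stretches shown differ at 4 of 130 bases, count separately in each mitotic tally. In Kif11 the hexamer began 19 bases before the start and the CCAAT box 45 bases before it. A match of these letters is a description of the window and shows no binding.

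**Figure D1:**
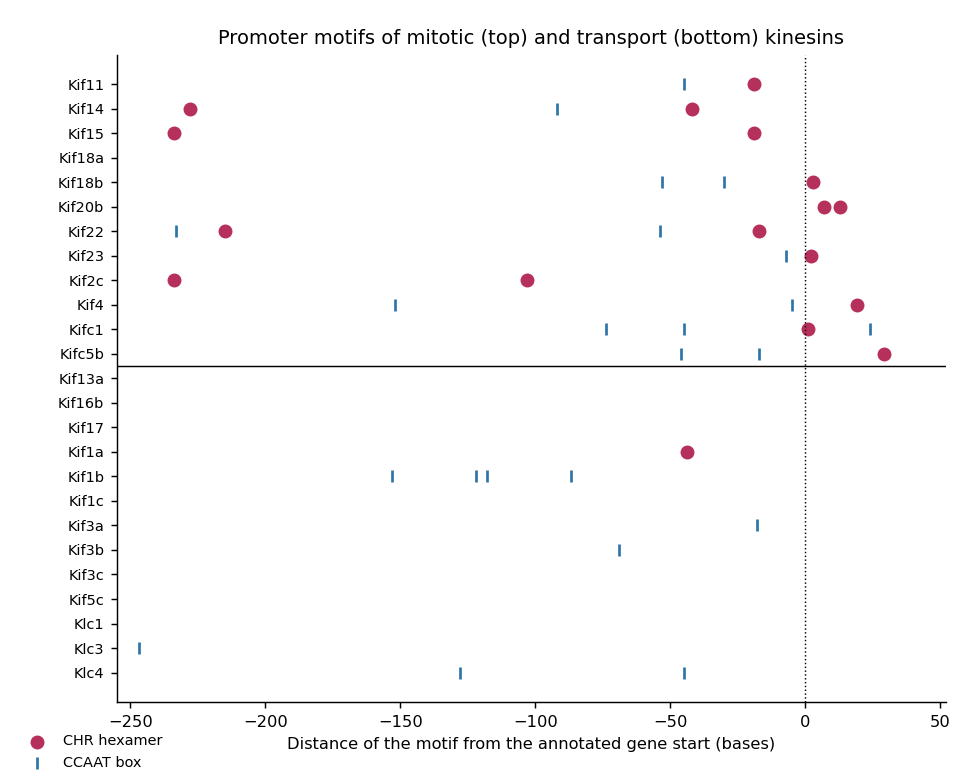
Position of CHR hexamers (circles) and CCAAT boxes (vertical ticks) relative to the annotated gene start, in bases, for the 12 mitotic (top) and 13 transport (bottom) kinesin genes with a promoter entry. Circles lie in 11 of the 12 upper lines and in 1 of the 13 lower lines.

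Transport genes, with the kinesin light chains among them, held most of the kinesin RNA of these cells. Levels in RPKM are scaled by gene length and can be set side by side. Kif5c, Klc1, Kif21b and Kif1a were the 4 most abundant genes and held 43.2% of the summed kinesin RPKM in Control and 42.5% in TRPM2-KD. The 16 transport genes together held 67.1% and 66.1%, of which the 4 light chains, not motors themselves, made up 18.0% and 17.4%. The 5 microtubule regulators of neurons held 20.7% and 21.6%. The 13 mitotic genes held 9.33% and 9.24%, and the 5 genes of cilia and Hedgehog signalling 0.954% and 0.996%. Summed levels of all 41 genes were 969 RPKM in Control and 977 in TRPM2-KD.

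Kinesin genes were mostly at like levels in both libraries, and the few that were not lay mainly among low genes. Past 1.2-fold on the higher side in TRPM2-KD were 6 of the 41 genes, and on the lower side (a ratio of 0.833 or less) were 4. Over all 15187 genes the shares past those limits were 19.1% and 18.2%. In either direction, 10 of 41 kinesin genes, or 24.4%, were past 1.2-fold, against 37.3% of all genes. Level and depth move with that share. At a mean of at least 5 RPKM, 2 of 29 kinesin genes were past 1.2-fold higher and 1 lower, against 10.4% and 12.1% of 9356 genes (22.5% in either direction). The median kinesin gene had 1724 reads over both libraries against 1247 for all genes. The median log2 ratio was -0.01 for the 41 genes and -0.004 for all 15187 genes. The higher of the paired levels was less than 10% above the lower in 25 kinesin genes, or 61.0%, and in 39.3% of all genes. Whether level and depth set the lower share past 1.2-fold was not tested.

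Counting intervals lay above 1 for 11 and below 1 for 9 of the 41 kinesin genes, against 28.1% and 28.2% of all genes. Such intervals cover the error of counting reads and not the spread between embryos or libraries. The authors' deposited table gives each gene a p-value for the pair of libraries, which does not compare the conditions. With that p-value below 0.05, no kinesin gene there had a log2 fold change over 1, against 2.16% of all genes. In the same deposited table of the authors 1 kinesin gene, Kif6, was under -1, against 1.68% of all genes (3.84% in either direction).

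**Figure D2:**
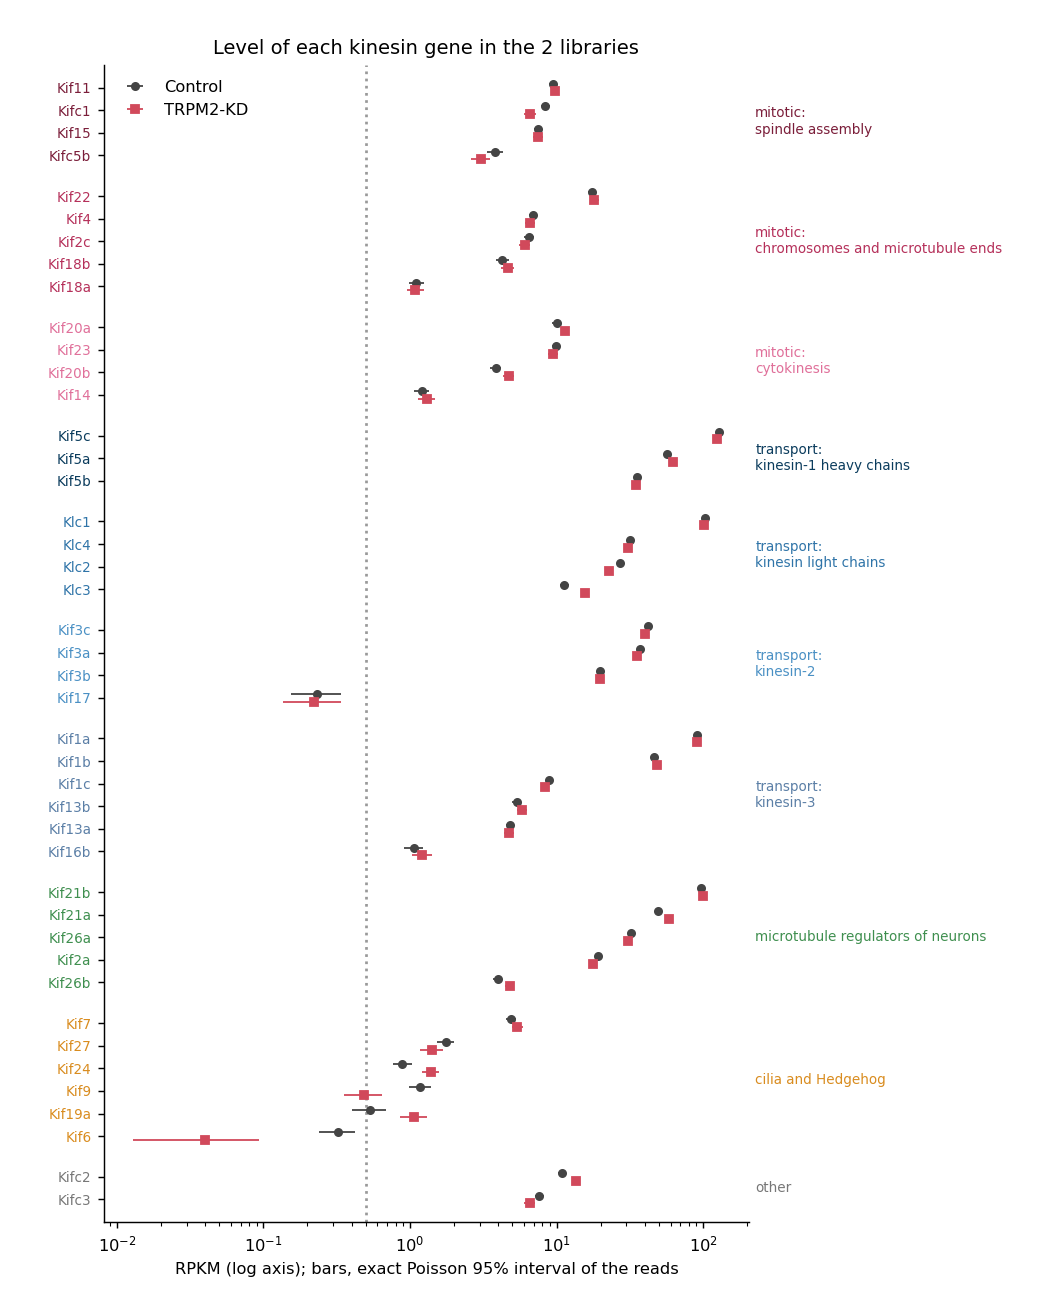
RPKM of each of the 43 kinesin genes (log axis) in Control (circles) and TRPM2-KD (squares), grouped by role, with exact Poisson 95% intervals of the reads as bars and a dotted line at 0.5 RPKM. Kif5c stands highest at 128 and 125 RPKM, and both symbols nearly overlap for most transport genes.

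**Figure D3:**
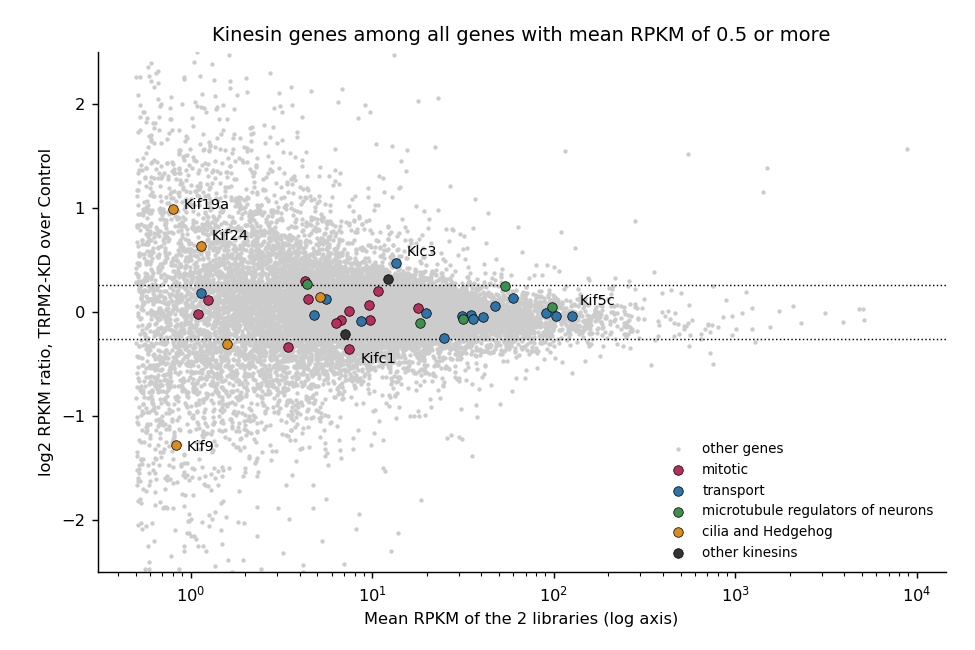
Mean RPKM (log axis) against the log2 ratio of TRPM2-KD over Control for all genes past the level filter (grey) and for the 41 kinesin genes (coloured by role), with dotted lines at 1.2-fold. The 129 genes beyond 2.5 on the log2 scale or with 0 reads in 1 library are not drawn. Kinesin genes above 30 RPKM lie between ratios of 0.952 and 1.19, and Kif9 and Kif19a lie at the low end of the level axis.

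Of the 4 spindle assembly genes among the mitotic motors, 2 were at least 1.2-fold lower in TRPM2-KD and none was higher. Over all genes those shares were 18.2% and 19.1%. The 2 genes were Kifc1 and its near copy Kifc5b, which may share reads, so this count does not set the group apart. Kif11, the plus-end motor that slides spindle microtubules apart, was at 9.39 RPKM in Control and 9.83 in TRPM2-KD, a ratio of 1.05 (0.961 to 1.14) from 1188 and 986 reads. Kif15, which acts beside Kif11 in keeping the spindle bipolar, was at 7.44 and 7.48 RPKM, a ratio of 1.01 (0.913 to 1.11) from 940 and 750 reads. Both plus-end motors were thus level between the libraries within counting error. Kifc1, the minus-end motor that focuses spindle poles, was lower in TRPM2-KD, at 8.41 and 6.58 RPKM, a ratio of 0.783 (0.696 to 0.880) from 752 and 467 reads. Its copy Kifc5b was at 3.83 and 3.04 RPKM, a ratio of 0.793 (0.649 to 0.966) from 264 and 166 reads.

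Kifc1 and Kifc5b are near copies, and the reads of each are uncertain. Their longest coding transcripts in GENCODE M21 align over 2375 bases with 95.9% identity, their promoter stretches shown above differ at 4 of 130 bases, and the authors' table describes both by the same protein. How reads matching both places were counted is not given in the sources used here. Summed over the pair, 1016 reads in Control and 633 in TRPM2-KD gave a ratio of 0.785 (0.710 to 0.868). This sum does not depend on how reads were split between them, provided each read was counted once. Reads counted for both genes would make the interval too narrow, and dropped reads would be missing from the sum.

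Motors of chromosomes and microtubule ends stayed within 1.2-fold, all 5 of them, and none had a counting interval off 1. Kif22, a motor that pushes chromosome arms outward, was the most abundant of these at 17.5 and 18.0 RPKM, with a ratio of 1.03 (0.935 to 1.13) from 949 and 775 reads. Kif4, which works in chromosome condensation and at the spindle midzone, was at 6.95 and 6.60 RPKM, a ratio of 0.950 (0.863 to 1.04) from 1006 and 758 reads. Part of Kif4 is overlapped by exons of Pdzd11 on the opposite strand, so its reads are uncertain. Kif2c, a depolymerase that corrects wrong chromosome attachments, was at 6.51 and 6.07 RPKM, a ratio of 0.932 (0.834 to 1.04) from 745 and 551 reads. Kif18b, which shortens astral microtubules, was at 4.27 and 4.64 RPKM, a ratio of 1.09 (0.939 to 1.26) from 400 and 345 reads. For Kif18a, which damps chromosome oscillation at metaphase, 285 and 223 reads gave 1.105 and 1.09 RPKM and a ratio of 0.986 (0.824 to 1.18).

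Of the 4 cytokinesis motors, 3 had a ratio above 1, as had 7504 of all 15187 genes, and 1 was past 1.2-fold higher. Counts this small do not set the group apart from the shares over all genes. Kif20b, a midbody motor whose loss in mice disturbs cytokinesis of cortical progenitors, was at 3.84 and 4.72 RPKM, a ratio of 1.23 (1.09 to 1.39) from 560 and 547 reads. Kif20a, which brings the chromosomal passenger complex to the midzone, was at 9.999 and 11.5 RPKM, a ratio of 1.15 (1.05 to 1.26) from 996 and 908 reads. Exons of Cdc23 on the opposite strand overlap 29.3% of the exon bases of Kif20a, so its reads are uncertain. Kif14, a partner of citron kinase at the midbody, was at 1.204 and 1.30 RPKM with a ratio of 1.08 (0.907 to 1.29) from 277 and 238 reads, and Kif23, the motor of centralspindlin, was at 9.93 and 9.44 RPKM with a ratio of 0.951 (0.859 to 1.05) from 892 and 673 reads. The intervals of Kif14 and Kif23 span 1.

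Over all 13 mitotic kinesin genes, 1 was past 1.2-fold higher and 2, the near copies Kifc1 and Kifc5b, lower. Over all 15187 genes those shares were 19.1% and 18.2%. The mitotic median log2 ratio was 0.008. The summed level was 90.4 RPKM in Control and 90.3 in TRPM2-KD. Spindle and midzone partners, a list of 30 genes all past the level filter, had 8 genes at least 1.2-fold higher and 4 lower. The same shares over all genes, 19.1% and 18.2%, stand beside these counts. Most of the 30 averaged at least 5 RPKM, where the shares over all genes were 10.4% and 12.1%. Those below that level, Hmmr, Cit, Aspm and Anln, were all among the higher genes. The part of level in these counts was not tested. The median log2 ratio of the 30 was 0.16. Anln, an actin scaffold of the cleavage furrow, was at a ratio of 1.505 (1.32 to 1.71), and Aspm, a spindle pole protein of radial glia, at 1.41 (1.30 to 1.52). Birc5, a subunit of the chromosomal passenger complex, was at 0.625 (0.546 to 0.713). Cenpe, a kinesin of kinetochores whose symbol the rule does not take, was at 7.23 and 9.54 RPKM and a ratio of 1.32 (1.23 to 1.42), and was picked out after its value was seen.

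**Figure D4:**
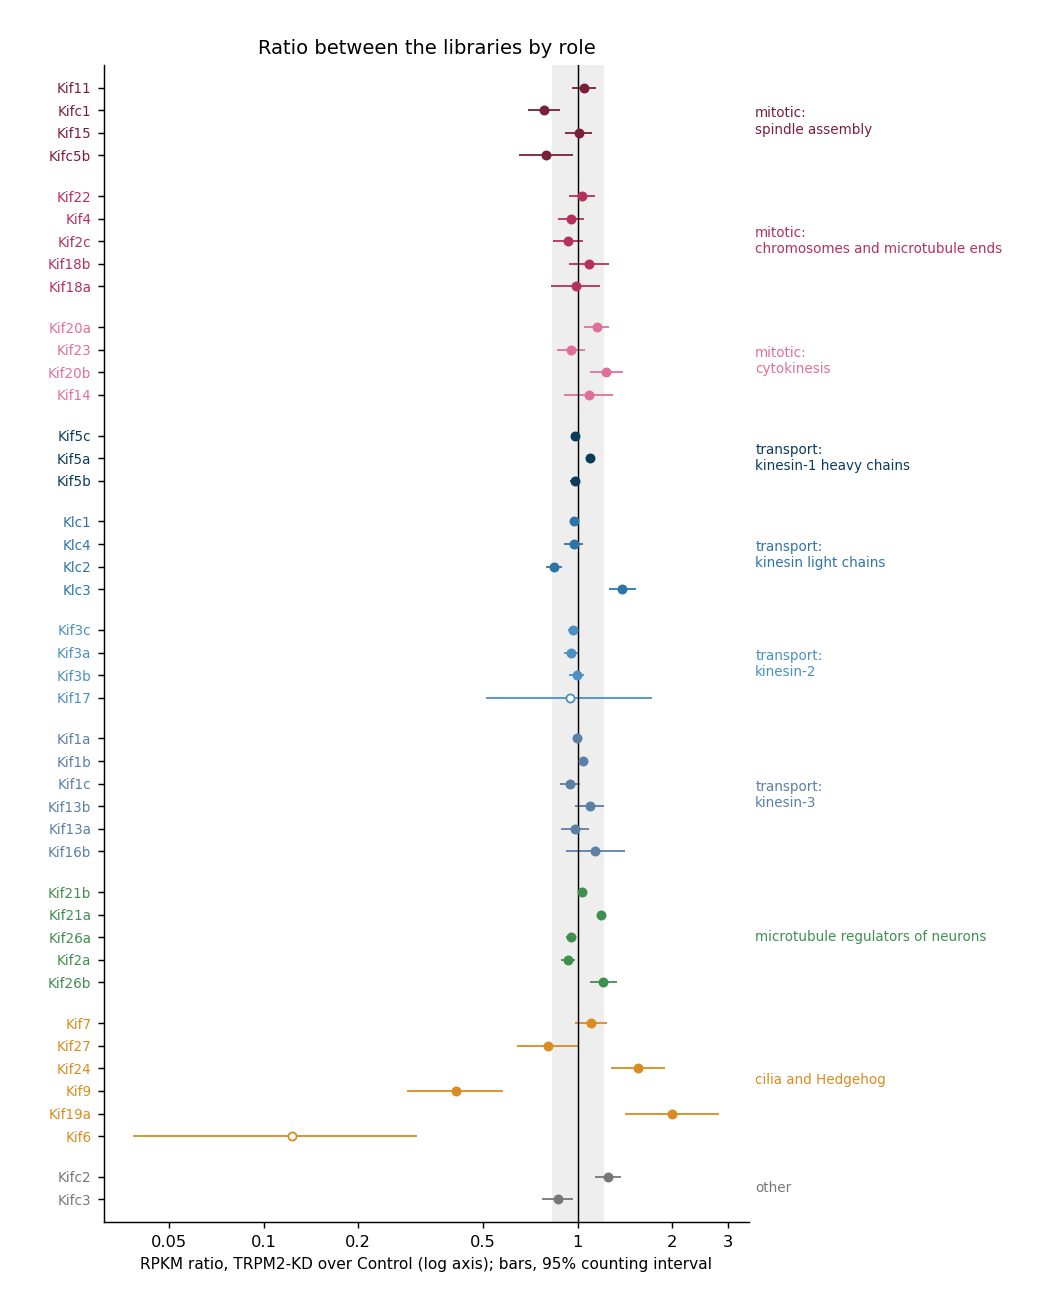
Ratio of TRPM2-KD over Control for each kinesin gene (log axis) with its 95% counting interval, grouped by role. Grey marks the range within 1.2-fold and open symbols mark the genes under 0.5 RPKM. Mitotic and transport genes lie mostly within the grey range, and the genes of cilia spread from 0.124 (Kif6) to 1.99 (Kif19a).

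Heavy chains of kinesin-1, the main motor of fast axonal transport, were abundant and within 1.2-fold between the libraries, Kif5a with an interval above 1 and Kif5c with one below. Kif5c, enriched in neurons, was the most abundant kinesin gene, at 128 RPKM in Control and 125 in TRPM2-KD, from 23946 and 18557 reads, a ratio of 0.977 (0.958 to 0.996). Kif5a, specific to neurons, was at 56.8 and 62.2 RPKM from 9405 and 8168 reads, a ratio of 1.09 (1.06 to 1.13). Kif5b, found in most cell types, was at 35.5 and 34.8 RPKM from 6894 and 5357 reads, a ratio of 0.980 (0.945 to 1.02). The order Kif5c, Kif5a, Kif5b held in both libraries, with Kif5c at 3.60 times the level of Kif5b in Control and 3.59 times in TRPM2-KD, and Kif5a at 1.60 and 1.79 times.

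Kinesin light chains, which link those heavy chains to cargo, differed more among themselves. Klc1, the main light chain of neurons, was at 104 and 101 RPKM from 11088 and 8570 reads, a ratio of 0.974 (0.947 to 1.00). Klc4 was at 31.8 and 30.9 RPKM from 1939 and 1493 reads, a ratio of 0.971 (0.907 to 1.04). Both were level within counting error. Klc2, found in many tissues, was at 27.0 and 22.7 RPKM from 2934 and 1957 reads, a ratio of 0.841 (0.794 to 0.891). Klc3, known from sperm tails, was the 1 transport gene past 1.2-fold, higher in TRPM2-KD at 11.3 and 15.7 RPKM from 778 and 856 reads, a ratio of 1.39 (1.26 to 1.53). Exons of the repair gene Ercc2 on the opposite strand overlap 28.1% of its exon bases. Whether the counting used strand is not given in the sources used here, so the reads of Klc3 are uncertain.

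Kinesin-2 genes were all slightly below 1. Kif3a and Kif3b, which form the motor of intraflagellar transport and of some axonal cargo, were at 37.0 and 35.3 RPKM (ratio 0.954, 0.907 to 1.00, 3479 and 2633 reads) and at 19.8 and 19.7 RPKM (ratio 0.993, 0.940 to 1.05, 2930 and 2309 reads). Kif3c, a neuronal form, was at 41.8 and 40.3 RPKM with a ratio of 0.965 (0.932 to 0.999) from 7507 and 5746 reads, and 35.3% of its exon bases are overlapped by 1110002L01Rik on the opposite strand. Kifap3, the adaptor that completes the Kif3a and Kif3b motor, was at a ratio of 1.00 (0.963 to 1.05) and was picked out for that role after its value was seen. Kif17, a motor of dendrites and cilia, had only 28 and 21 reads and a ratio of 0.945 (0.510 to 1.73), too few to resolve a difference at this depth.

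Kinesin-3 genes, the vesicle motors, lay within 1.2-fold in all 6 cases. Kif1a, which carries synaptic vesicle precursors, was at 90.7 and 90.2 RPKM from 19772 and 15609 reads, a ratio of 0.995 (0.974 to 1.02). Kif1b, a motor of mitochondria and synaptic vesicles, was at 46.5 and 48.3 RPKM from 21492 and 17689 reads, a ratio of 1.04 (1.02 to 1.06). The protein description in the authors' table names KIF1C for this gene, while its identifier carries the symbol Kif1b in GENCODE M21. Kif1c, a motor of dense-core vesicles, was at 8.90 and 8.38 RPKM from 1699 and 1269 reads, a ratio of 0.942 (0.875 to 1.01). Kif13b, a partner of the scaffold Dlg1, was at 5.35 and 5.84 RPKM from 787 and 681 reads, a ratio of 1.09 (0.983 to 1.21), and Kif16b, a motor of early endosomes, at 1.06 and 1.21 RPKM from 185 and 167 reads, a ratio of 1.14 (0.918 to 1.41). Kif13a, which moves endosomes, was at 4.83 and 4.74 RPKM from 871 and 678 reads with a ratio of 0.981 (0.886 to 1.09). Apart from Kif1b, the intervals of these kinesin-3 genes span 1.

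Over the 16 transport genes the median log2 ratio was -0.03, with 5 genes above a ratio of 1 and 11 below. Of all 15187 genes, 7504 were above and 7683 below. The summed transport level was 650.0 RPKM in Control and 646 in TRPM2-KD. The list of cargo adaptors and regulators gave a similar picture. Of its 24 genes, 2 were at least 1.2-fold higher and none lower, against 19.1% and 18.2% of all genes. At a mean of at least 5 RPKM those shares were 10.4% and 12.1%. The median log2 ratio of the 24 was -0.005. Fez2 was at 1.28 (1.13 to 1.45), Rhot1, the mitochondrial receptor for the transport complex, at 1.23 (1.15 to 1.32), and Mapk8ip1, an adaptor of kinesin-1, at 0.837 (0.802 to 0.873). Neuron markers, which share cells with these motors, had 8 of 10 genes below a ratio of 1, against 7683 of all 15187. The median log2 ratio of the 10 markers was -0.13, and none of them was at 0 reads. Their part in the transport values was not tested.

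Motors that regulate microtubules in neurons had 1 of 5 genes past 1.2-fold, against 37.3% of all genes in either direction. Kif21a and Kif21b, motors that restrain microtubule growth, were at 49.3 and 58.6 RPKM (8371 and 7898 reads) and at 96.0 and 99.2 RPKM (27249 and 22324 reads). Their ratios were 1.19 (1.15 to 1.23) and 1.03 (1.01 to 1.05). Kif26b, a motor-like protein acting in Wnt5a-Ror signalling, was at 3.98 and 4.80 RPKM from 817 and 781 reads, a ratio of 1.21 (1.09 to 1.33) that sits at the 1.2-fold limit. Its relative Kif26a, which binds microtubules without moving, went the other way at 32.3 and 30.7 RPKM from 5860 and 4426 reads, a ratio of 0.952 (0.915 to 0.990). Kif2a, a depolymerase that prunes axon branches, was at 19.1 and 17.7 RPKM from 3526 and 2596 reads, a ratio of 0.928 (0.882 to 0.977), and Dimt1 on the opposite strand overlaps 19.2% of its exon bases. Their median log2 ratio was 0.05, but -0.04 relative to genes of like length, since across all genes the median log2 ratio went from -0.07 in the shortest to 0.09 in the longest of 10 groups by length.

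Motors of cilia varied most, and in both directions. Of the 5 genes past the level filter, 2 were at least 1.2-fold higher and 2 lower, against 19.1% and 18.2% of all genes. The same 2 higher genes and 1 of the lower ones were also past 1.5-fold, against 7.85% higher and 6.6% lower of all genes. Those 3 genes, Kif19a, Kif24 and Kif9, average between 0.5 and 2 RPKM, where 22.6% of all genes were past 1.5-fold higher and 19.4% lower. Low levels go with wide ratios. Of all genes averaging from 0.5 to under 2 RPKM, 70.9% were past 1.2-fold in either direction, and 4 of 7 kinesin genes in that range were. Kif7, the Hedgehog regulator at the tip of the primary cilium, was the most abundant at 4.89 and 5.39 RPKM from 588 and 514 reads, a ratio of 1.102 (0.977 to 1.24), and an antisense transcript overlaps 19.1% of its exon bases. Kif24, a depolymerase that holds back cilium growth from the mother centriole, was higher in TRPM2-KD, at 0.889 and 1.38 RPKM from 187 and 231 reads, a ratio of 1.56 (1.28 to 1.90). Kif27, a relative of Kif7, was at 1.75 and 1.41 RPKM from 205 and 131 reads, a ratio of 0.806 (0.642 to 1.01) whose interval reaches past 1.

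Motile cilia motors parted from each other. Kif9, of the central apparatus of motile cilia, was lower in TRPM2-KD at 1.18 and 0.484 RPKM from 138 and 45 reads, a ratio of 0.411 (0.287 to 0.579). Kif6, which is needed for the cilia of ependymal cells, was lower still, from 51 reads in Control to 5 in TRPM2-KD, a ratio of 0.124 (0.0385 to 0.308). The authors' deposited table gives Kif6 a log2 fold change of -2.99, a p-value of 0.00131 and an adjusted p-value of 0.134. Kif19a, a depolymerase that sets the length of motile cilia, went the other way at 0.534 and 1.06 RPKM from 57 and 90 reads, a ratio of 1.99 (1.41 to 2.82). Markers of choroid plexus and multiciliated cells were lower as well, 6 of the 7 past the level filter by at least 1.2-fold. Over all genes that share was 18.2%. The median log2 ratio of these markers was -0.61. Foxj1, the master factor of motile cilia and picked out for that role, was at 10.95 and 7.16 RPKM, and none of the 8 listed markers was at 0 reads. Mcidas (1.07 and 0.163 RPKM) and Kif9 passed the filter only through their Control level. Dnah5, under the filter, was higher with 11 and 42 reads. The part of these markers in the values of Kif9, Kif6 and Kif19a was not tested.

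The remaining minus-end motors diverged. Kifc2, a neuronal motor, was at 10.9 and 13.6 RPKM from 897 and 887 reads, a ratio of 1.25 (1.13 to 1.37). Kifc3, which acts at the Golgi and at adherens junctions, was at 7.64 and 6.58 RPKM from 753 and 515 reads, a ratio of 0.862 (0.769 to 0.966).

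Other microtubule genes were set beside the kinesins. Over all 15187 genes, 19.1% were past 1.2-fold higher and 18.2% lower, and 7683 had a ratio below 1. At a mean of at least 5 RPKM the shares past 1.2-fold were 10.4% and 12.1%. Of 25 genes of cytoplasmic dynein and dynactin, the motor that runs against most kinesins, 2 were at least 1.2-fold higher and 4 lower, with a median log2 ratio of -0.05. Hook3, a dynein activator, was at a ratio of 1.34 (1.28 to 1.41), Dctn3 at 0.771 (0.722 to 0.824), and Ndel1, a dynein regulator of neuronal migration, at 0.752 (0.693 to 0.816). None of 12 tubulin genes was past 1.2-fold, with 9 below a ratio of 1, a median log2 ratio of -0.08, and Tubb5 at 0.874, Tuba1a at 0.894 and Tubb6 at 0.865. Of 21 genes of microtubule-associated proteins 4 were lower and none higher, with a median of -0.04, and Map7, which recruits kinesin-1 to microtubules, was at 1.38 and 0.795 RPKM and a ratio of 0.578 (0.431 to 0.769) from 157 and 72 reads. Stmn1 was at 0.811 and Mapt, the axonal protein tau, at 0.813.

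**Figure D5:**
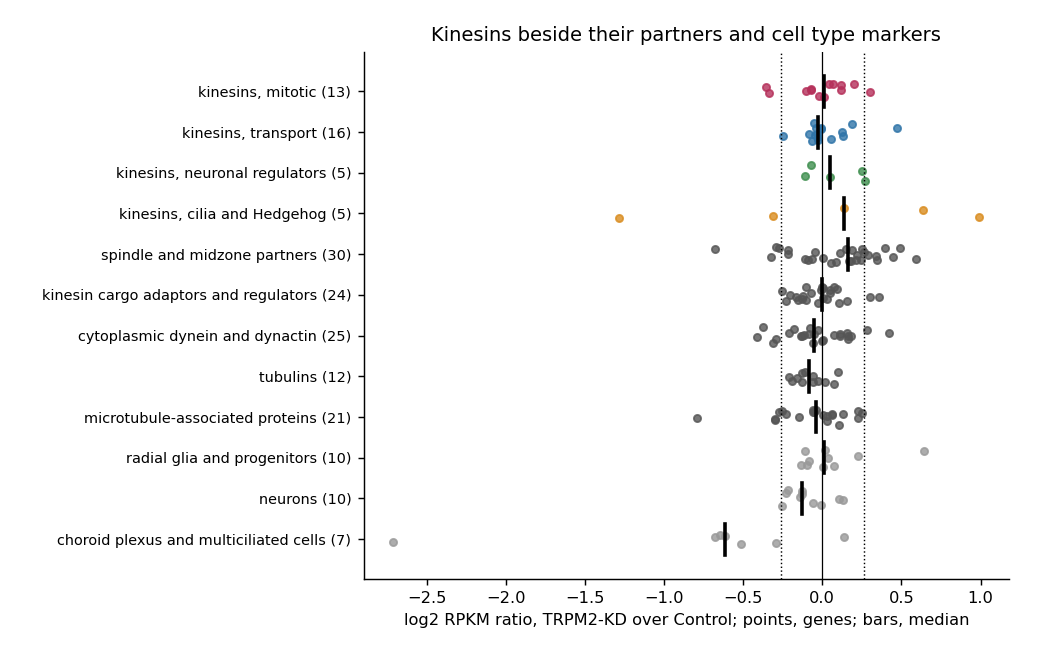
Log2 ratio of TRPM2-KD over Control for the genes of each list past the level filter (points, number of genes in brackets), with the median as a black bar and dotted lines at 1.2-fold. Medians of the mitotic and transport kinesins lie at 0.008 and -0.03, and that of choroid plexus and multiciliated cells at -0.61.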

How the data were processed

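RNA of 2 libraries, 1 per group, was sequenced. Per the file headers, the authors deposited for each gene a read count and an RPKM value per library, and for the pair a log2 fold change and its p-value, raw and adjusted, whose tool the sources used here do not name. The deposited counts are whole reads, and the deposited RPKM scale them by gene length and library total. The submitters' processing notes name the build mm9 and, with no role stated, HTSeq 0.6.0, TopHat2 2.0.12 and Bowtie2 2.2.3. Strand, annotation release and the treatment of reads matching several places are not given there. The table lists only genes whose larger CPM, computed here from the counts, is 1.01 or more.

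The ratio is the plain RPKM ratio, TRPM2-KD over Control, with an exact conditional binomial (Clopper-Pearson) 95% interval from the counts (Python 3.11.15, scipy 1.17.1). It covers counting error only. PCR reads are not independent molecules. A gene was counted as past a limit at 1.2-fold, beside the same share over all genes past the level filter of 0.5 RPKM, where 28 genes with 0 reads in 1 library count as past it. No set test or p-value was computed. The ratio and interval were tested on simulated data. Alternatives were TMM factors (edgeR 4.0.16), median-of-ratios size factors (DESeq2 1.42.0), pseudocounts of 1 and 0.1, other level filters, a 1.5-fold limit, centring within 10 groups of length and the authors' log2 fold change. Each role group has its members above the filter given with both values. From each pathway list (spindle partners, adaptors, dynein, tubulins, microtubule-associated proteins), up to 3 genes past the filter with the largest absolute log2 ratio are named. Cell type markers are named for their role. Members, lists and roles were chosen with earlier results of these data known. All 43 identifiers carry the same symbol in GENCODE M21, which served for symbols and overlaps without coordinates. Protein sequences were not used here.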

Additional observations from a re-analysis of the deposited data

How the results depend on the processing

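With 1 library per group nothing below is a test, and depth limits the genes with few reads (Kif6, Kif17, Kif9, Kif19a). No paired analysis was possible because each group has 1 library. TMM, size factors and the authors' log2 fold change left 6 genes at least 1.2-fold higher and 4 lower, and moved none of the 41 ratios outside its counting interval. With log2(RPKM + 1), a scale that shrinks low genes, the higher count was 4 and the lower 2, and the log2 ratios of Kif9, Kif19a and Kif24, as reported -1.28, 0.99 and 0.64, were -0.55, 0.43 and 0.34. At a mean of at least 5 RPKM the counts were 2 higher and 1 lower, since fewer genes were counted, and at a 1.5-fold limit they were also 2 and 1. The ciliary median log2 ratio, 0.14 as reported, was -0.0860 with no filter, which adds Kif6. That of the neuronal microtubule regulators, 0.05 as reported, was -0.0122 at that level, which drops Kif26b, and -0.0410 relative to genes of like length. Centring by length moved 5 of 41 ratios outside their counting intervals, those of Kif1a, Kif1b, Kif5a, Kif5c and Kif21b. It changed the sign of 3 log2 ratios, all within 1.2-fold. Kif1b went from 0.05 to -0.03 and Kif21b from 0.05 to -0.04, although both had intervals above 1 as reported. Klc4 went from -0.04 to 0.0004. The same centring put Kif26b within 1.2-fold. Chosen after the data were seen, leaving out Kifc1 and Kifc5b gave a mitotic median of 0.04, summing their reads gave 0.03, and keeping only ciliary genes with 100 or more reads in both libraries left that median at 0.14.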

Other observations

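Because Kif9, Kif6 and Kif19a belong to motile cilia, 50 genes of axonemes and multiciliated cells were listed after those values had been seen. Of these, 40 are in the table and 29 passed the level filter. At least 1.2-fold lower in TRPM2-KD were 10 of the 29 and higher were 5, against 18.2% and 19.1% of all genes. The median log2 ratio of the 29 was -0.18. The level filter shaped this tally. Mcidas, Ccdc103 and Rsph4a passed it only through Control (1.07, 0.968 and 0.919 RPKM, against 0.163, 0.102 and 0.434). Genes under it were not counted, among them Dnah5 (4.81), Dnah3 (3.47), Spag16 (2.13) and Dnah7a (1.92), higher, and Spef2 (0.765), lower. Mcidas, which starts the multiciliated programme, stood at 66 and 8 reads, a ratio of 0.153 (0.0633 to 0.319), Rsph4a of the radial spoke at 88 and 33 reads, a ratio of 0.473 (0.307 to 0.713), and Ccdc103 had 48 and 4 reads. On the higher side, and chosen after their values were seen, Ccdc39, a ruler of the axoneme, was at 1.38 (1.25 to 1.52) from 838 and 916 reads, and Drc1 at 1.60 (1.22 to 2.10) from 100 and 127 reads. Of the 29 genes, 9 had a ratio above 1 and 20 below, against 7504 and 7683 of all 15187 genes. Of the 5 ciliary kinesin genes past the filter, 3 were above 1 and 2 below.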
